A study of Mus musculus with 6 samples.

Results

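The 39 genes described here carry a symbol that starts with Psma, Psmb, Psmc or Psmd and a digit, out of 16095 genes in the table, with pseudogene symbols left out (0 were in the table). They were measured by RNA sequencing in 6 libraries of sorted mouse kidney epithelial cells, 3 from Trf1+/+ mice (control) and 3 from Trf1lox/lox mice (Terf1_flox). Terf1 encodes TRF1, a telomere-binding protein of shelterin. Mice of both groups also carried the KFP+/t and Cre+/t alleles, so the controls had the recombinase and the fluorescent reporter too, and both groups were injected with tamoxifen 3 times a week for 8 weeks, from an age of 6 to 8 weeks, males and females. The Cre is a tamoxifen-dependent CreERT2 under the Ksp-cadherin (Cdh16) promoter, which is active in renal tubular epithelium, and cells were sorted by an EpCAM antibody and the KFP signal. Whether a library holds 1 mouse or several, and of which sex, the sources used here do not say. The p-values below therefore measure only the spread between these libraries, which may be technical.

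The proteasome is the protease that degrades proteins tagged with ubiquitin. Its core particle is a barrel of outer rings of alpha subunits (Psma genes) and inner rings of beta subunits (Psmb genes), some of which hold the cutting sites. The regulatory particle caps the barrel: its base has a ring of ATPases (Psmc genes) that unfold and thread substrates, with non-ATPase subunits that scaffold the base and receive ubiquitin, and its lid (other Psmd genes) removes ubiquitin chains. Interferon-induced beta subunits replace the constitutive catalytic ones in the immunoproteasome, which favours peptides that fit MHC class I molecules.

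By these roles the 39 genes comprised 7 alpha subunits, 7 constitutive beta subunits, 3 immunoproteasome subunits, the thymic subunit Psmb11, 6 ATPases, 3 non-ATPase base subunits and 8 lid subunits. The symbols also took in 4 genes that are no subunit of the mature particle. These were the base assembly chaperones Psmd5, Psmd9 and Psmd10, and Psmc3ip, a meiotic recombination factor named for binding PSMC3. Below, the core particle means the 14 alpha and constitutive beta genes and the regulatory particle the 17 ATPase, base and lid genes. Adrm1 and Sem1 are regulatory subunits with other symbols and are given with the related genes. All 39 genes reached the mean of 10 normalized counts (reads scaled by library size) needed for testing.

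The libraries held 13582140 to 17680986 reads over the genes of the table. Terf1, the targeted gene, stood at 529.6, 486.1 and 663.9 normalized counts in the controls against 62.0, 24.6 and 25.3 in Terf1_flox. The groups did not overlap, with a log2 fold change (Terf1_flox over control) of -3.99 ± 0.61 (SE), an adjusted p of 0.0814 in limma over all genes and an exact two-sided permutation p of 0.1, the smallest that 3 libraries against 3 can give. The sort marker Epcam was itself at 4510.2, 5087 and 4416 in the controls against 1831, 1434 and 2977 in Terf1_flox, and its part in the results below was not tested. Of 12 markers of the sorted epithelium, Epcam among them, 8 were below 0 and 4 above, with a median log2 fold change of -0.24. At an unadjusted limma p below 0.05, 2 were lower and 1 higher, beside 8.43% and 5.7% of all genes tested. DESeq2 called 2 of the 12 lower and 0 higher, beside 3.34% and 2.47% of all genes with an adjusted p. The 12 markers summed to 295857, 280057 and 245327 normalized counts in the controls against 230220, 238010 and 188641 in Terf1_flox, without overlap. Together the 39 genes took 0.490 to 0.647% of the normalized counts in the controls against 0.387 to 0.523% in Terf1_flox.

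The regulatory particle was lower relative to the core particle in each Terf1_flox library. The 17 regulatory genes had a median log2 fold change of -0.82, with 14 below 0, while the 14 core genes had a median of 0.24, with 10 above 0. Over all 14822 genes tested the median was -0.08 and 52.8% were below 0. At an unadjusted limma p below 0.05, 8 of the 17 regulatory genes were lower and 0 higher, beside 8.43% of all genes tested that were lower. In the core particle 1 of 14 was higher and 0 lower, beside 5.7% higher among all genes tested. After Benjamini-Hochberg adjustment over all genes, limma called 0 of the 39 members, as it did 0 of all genes (0.0%). The Terf1_flox libraries did not overlap the controls in 12 of the 39 members, 8 lower and 4 higher, beside 21.1% of all genes tested.

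Of the other fits of the same libraries, DESeq2 and limma with a stricter filter called some members. DESeq2 on the recovered reads called 7 of the 38 members that had an adjusted p, against 5.81% of all genes with one. They were Psmc1, Psmc3, Psmd2, Psmd4, Psmd11 and Psmd13, all lower and all regulatory, beside 3.34% of all genes called lower, and Psma2, called higher, beside 2.47%. With limma on the genes of a mean of at least 50, Psmc3 (adjusted p = 0.0441) and Psmd2 (adjusted p = 0.0481) passed, beside 1.23% of those genes. edgeR called 0 members and 0 of all genes, with 10 members at an unadjusted p below 0.05 beside 13.4% of all genes.

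**Figure D1:**
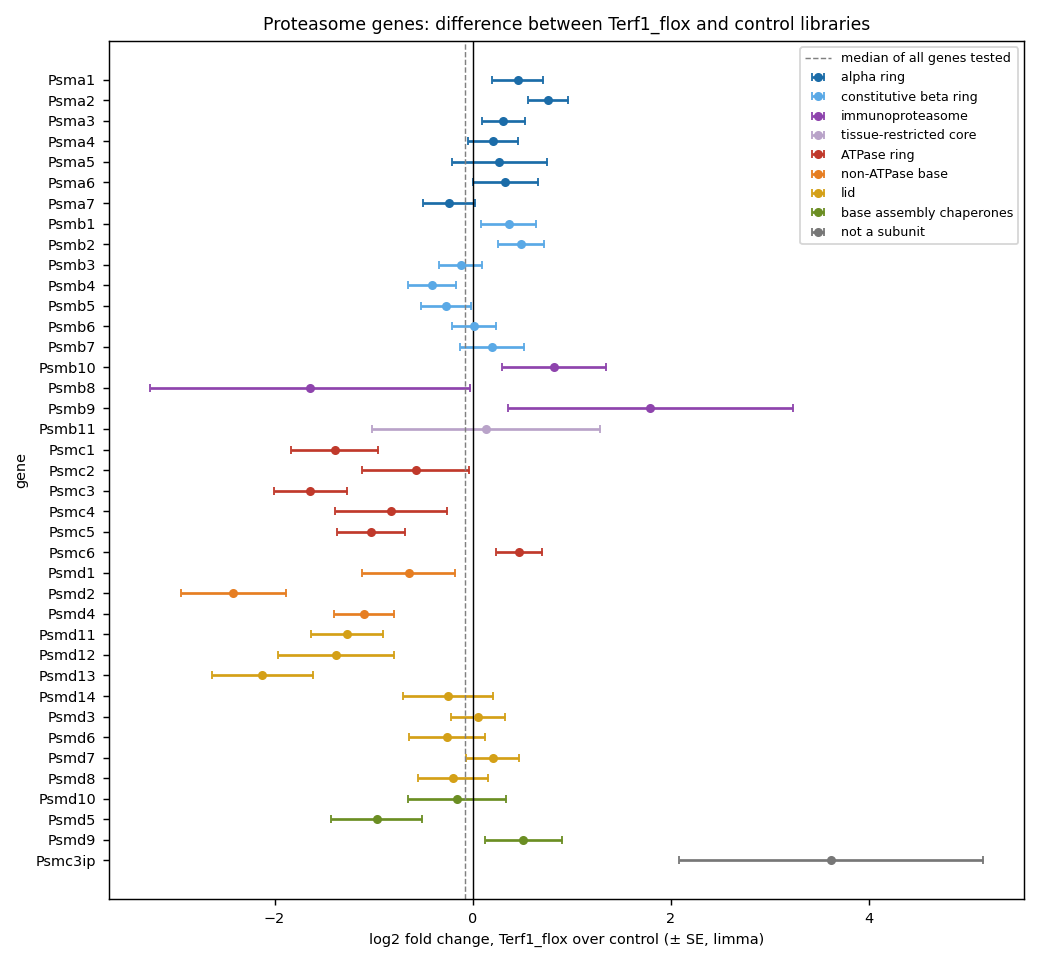
Log2 fold change of each of the 39 genes (x axis, Terf1_flox over control, points with limma SE bars, 3 libraries a group), ordered by subunit class, with the median of all genes tested as a dashed line. Of 17 regulatory genes 14 lie left of 0, the lowest being Psmd2 at -2.42, while 10 of 14 core genes lie right of 0.

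The same contrast was seen as a ratio within each library, which does not depend on how libraries are scaled to each other. Summed per kilobase of transcript, regulatory over core levels were 0.443, 0.445 and 0.496 in the controls against 0.223, 0.317 and 0.262 in Terf1_flox, or 0.461 ± 0.030 against 0.267 ± 0.047 (SD, n = 3 each). The Terf1_flox libraries all lay below the controls. Without division by length the ratio was 0.669, 0.684 and 0.763 in the controls against 0.336, 0.444 and 0.384 in Terf1_flox. No p is given for a sum over chosen genes.

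Relative to each gene's mean over the 6 libraries, the median regulatory gene stood at 0.48, 0.05 and 0.78 (log2) in the controls against -0.68, 0.20 and -0.15 in Terf1_flox. These levels overlapped, because Terf1_flox 2 lay above control 2. The median core gene stood at -0.02, -0.33 and 0.10 in the controls against -0.21, 0.29 and 0.29 in Terf1_flox, and also overlapped. It was the difference, regulatory minus core, that separated the groups, at 0.49, 0.38 and 0.68 against -0.47, -0.09 and -0.44. In bulk RNA, fewer cells of a type and less RNA per cell cannot be told apart.

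**Figure D2:**
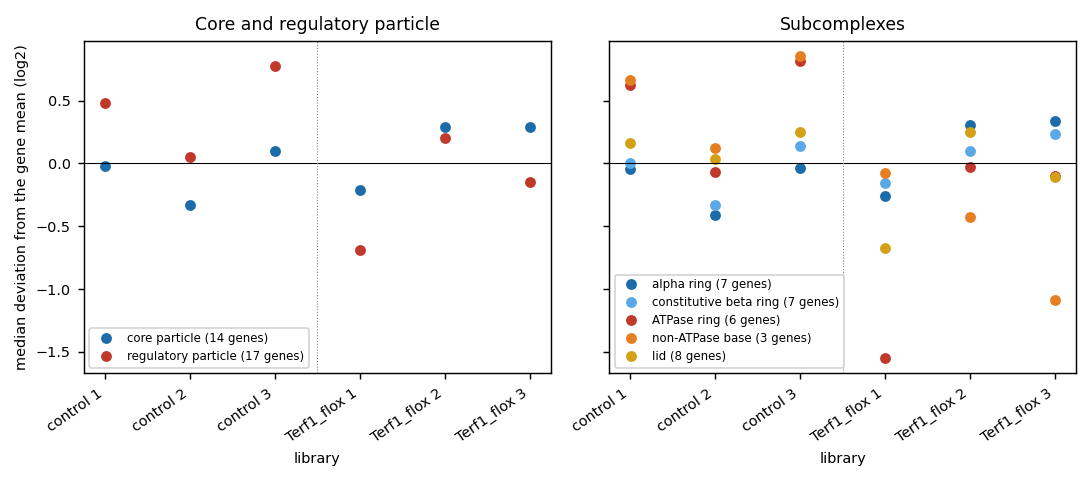
Median deviation of the genes of each class from their own mean over the 6 libraries (y axis, log2), by library, for the core and regulatory particles (left) and the subcomplexes (right). The regulatory point lies above the core point in the 3 control libraries and below it in the 3 Terf1_flox libraries, and the ATPase ring of Terf1_flox 1 is the lowest point at -1.55.

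The alpha ring, which gates entry to the barrel, showed small differences, 6 of 7 above 0 with a median of 0.31. That median was 0.55 without Terf1_flox 1, 0.19 without control 2, 0.11 without Terf1_flox 3, 0.14 with libraries scaled to equal totals and 0.08 after correction for GC content and length. Psma2, an alpha subunit, stood at 3674, 2720.2 and 3495 normalized counts in the controls against 5191, 5750.2 and 5642 in Terf1_flox. It was the only core gene whose Terf1_flox libraries all lay above the controls, beside 10.3% of all genes tested. Its log2 fold change was 0.76 ± 0.20 with an adjusted limma p of 0.178 and an adjusted DESeq2 p of 0.0254. Psma1 followed at 0.45 ± 0.26, with overlapping groups. Psma3, Psma4, Psma5 and Psma6 had values of 0.31, 0.20, 0.27 and 0.33, and Psma7 of -0.24, all with unadjusted p above 0.05 and overlapping groups.

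Among the constitutive beta genes 4 of 7 were above 0, with a median of 0.01 that ran from -0.16 (equal totals) to 0.23 (correction for GC content and length over all protein-coding transcripts) over the alternatives. Psmb4, a structural beta subunit, stood at 1908, 1799.5 and 1981 in the controls against 1279, 1680.0 and 1352 in Terf1_flox. Its groups did not overlap, as for 10.8% of all genes tested in this direction, and its log2 fold change was -0.41 ± 0.25 with an adjusted limma p of 0.494. Psmb2, another structural subunit, was at 0.49 ± 0.23 (adjusted p = 0.388), Psmb1 at 0.36 and Psmb3 at -0.12. The catalytic subunits Psmb5, Psmb6 and Psmb7 were at -0.27, 0.01 and 0.19, each smaller than its SE or close to it. Psmb6 was the most abundant of the 39 genes per kilobase, at 8544 normalized counts per kb in the controls against 8562 in Terf1_flox.

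The ATPase ring held 3 of the 8 regulatory genes with an unadjusted p below 0.05. Psmc3 stood at 4701, 4350.1 and 5697 in the controls against 856, 2240.4 and 2011 in Terf1_flox. The highest Terf1_flox library lay well under the lowest control. The log2 fold change was -1.64 ± 0.37, with an adjusted p of 0.13 in limma and 0.00129 in DESeq2.

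Psmc1 stood at 1609, 1790.0 and 2935 in the controls against 407, 1006 and 1133 in Terf1_flox. Psmc5 stood at 1438, 1086 and 2051 in the controls against 642, 639 and 921 in Terf1_flox. For both ATPases the groups did not overlap. Their log2 fold changes were -1.39 ± 0.44 (adjusted p = 0.227 in limma and 0.0391 in DESeq2) and -1.03 ± 0.34 (adjusted p = 0.239 in limma and 0.0644 in DESeq2).

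Psmc6, an ATPase of the same ring, lay the other way, at 1765, 1495 and 1881 in the controls against 2207, 2372 and 2494 in Terf1_flox. All its Terf1_flox libraries were above the controls, with a log2 fold change of 0.46 ± 0.23 and an adjusted limma p of 0.404. Psmc2 and Psmc4 were at -0.58 ± 0.54 and -0.82 ± 0.56 with overlapping groups. Both were lowest in Terf1_flox 1, at 521 and 519.9, while Terf1_flox 2 held 2045 and 2585. Without Terf1_flox 1 the median of the ATPase ring went from -0.92 to -0.54 and Psmc2 from -0.58 to 0.02.

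All 3 non-ATPase base genes were below 0, with a median of -1.09. Psmd2, like Psmd1 a large scaffold of the base, stood at 1126, 1030.3 and 1264 in the controls against 469.9, 112 and 181 in Terf1_flox. This was the lowest log2 fold change of the 39 genes, -2.42 ± 0.53, or 5.34-fold lower on the log2 scale with 1 added, with an adjusted p of 0.128 in limma and 0.00255 in DESeq2. Psmd4, a ubiquitin receptor, stood at 1699, 1165 and 1941 in the controls against 716, 795 and 691 in Terf1_flox. The Terf1_flox values of Psmd4 were close together and below every control, at -1.09 ± 0.30 (adjusted p = 0.188 in limma and 0.0212 in DESeq2). Psmd1 was at -0.64 ± 0.47, with overlapping groups.

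The lid was divided. Psmd13 stood at 546, 1079.9 and 1424 in the controls against 133, 237 and 319.8 in Terf1_flox, a log2 fold change of -2.12 ± 0.51 (adjusted p = 0.143 in limma and 0.00173 in DESeq2). Psmd11 stood at 2088, 1422 and 3004 in the controls against 789, 673 and 1201 in Terf1_flox, a log2 fold change of -1.27 ± 0.36 (adjusted p = 0.196 in limma and 0.0195 in DESeq2). In both of these structural lid subunits the groups did not overlap. Psmd12 stood at 2250.3, 1221 and 2816 in the controls against 815, 322 and 1679 in Terf1_flox, where Terf1_flox 3 lay above control 2, with a log2 fold change of -1.38 ± 0.58 (adjusted p = 0.339 in limma and 0.193 in DESeq2). Its unadjusted p was 0.0441 in limma and 0.0816 in edgeR, and without Terf1_flox 2 its log2 fold change was -0.76.

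The other 5 lid genes had log2 fold changes between -0.26 and 0.20, and all their groups overlapped. They were Psmd14, the deubiquitinase of the lid, at -0.25 ± 0.45, Psmd7, its partner, at 0.20 ± 0.27, and Psmd3, Psmd6 and Psmd8 at 0.05, -0.26 and -0.20. The median of the lid was -0.25, but it was -0.65 without Terf1_flox 2 and about 0 (-0.0047) without Terf1_flox 1. It was -0.089 in edgeR, -0.090 in DESeq2, -0.13 with equal upper quartiles and -0.43 with equal totals. Leaving out control 3 lowered the number of regulatory genes at an unadjusted p below 0.05 from 8 to 5.

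**Figure D3:**
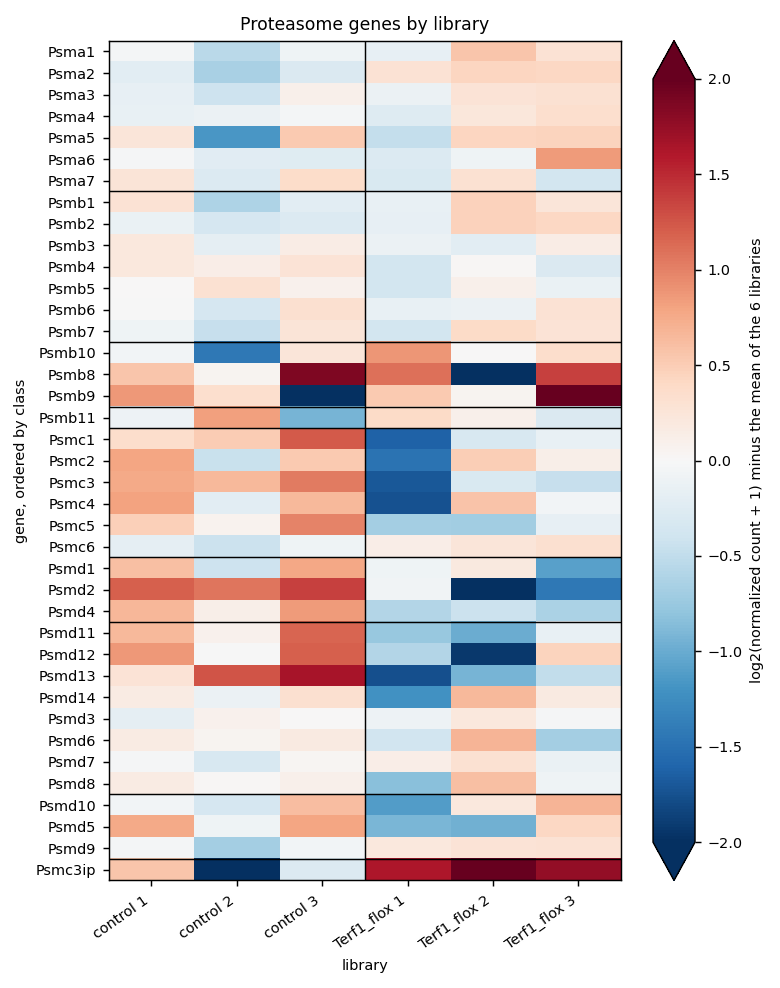
Each gene's log2(normalized count + 1) minus its mean over the 6 libraries (colour, log2, limited to 2 either way), with genes in rows by class and libraries in columns. Psmc1, Psmc3, Psmc5, Psmd2, Psmd4, Psmd11 and Psmd13 are lower in all 3 Terf1_flox libraries than in any control, while Psmc2 and Psmc4 are low mainly in Terf1_flox 1.

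Promoter sequence was examined because several regulatory genes were low together. RefSeq windows (GRCm38.p6, 250 bases before to 50 after the start of the gene) matched 33 of the 39 genes; Psmb1, Psmb2, Psmb7, Psmc3, Psmd3 and Psmd7 had no entry. The 250 bases before the start are shown for Psmd2 and Psmd13, which had the lowest log2 fold changes, for Psmd12, a low lid gene with a match to the antioxidant response element core, and for Psmb5, a core gene at -0.27 with such a match. Capitals mark TGACNNNGC, the core bound by NFE2L1 and NFE2L2 with small Maf proteins, on either strand. The windows lie at chr16:20651402-20651651 (Psmd2, plus strand), chr7:140882144-140882393 (Psmd13, plus), chr11:107479278-107479527 (Psmd12, plus) and chr14:54617996-54618245 (Psmb5, minus).
Psmd2: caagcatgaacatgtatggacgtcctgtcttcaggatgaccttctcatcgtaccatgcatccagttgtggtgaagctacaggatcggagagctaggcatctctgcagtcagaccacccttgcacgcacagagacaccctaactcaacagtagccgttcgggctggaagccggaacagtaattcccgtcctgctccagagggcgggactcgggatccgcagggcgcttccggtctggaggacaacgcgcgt
Psmd13: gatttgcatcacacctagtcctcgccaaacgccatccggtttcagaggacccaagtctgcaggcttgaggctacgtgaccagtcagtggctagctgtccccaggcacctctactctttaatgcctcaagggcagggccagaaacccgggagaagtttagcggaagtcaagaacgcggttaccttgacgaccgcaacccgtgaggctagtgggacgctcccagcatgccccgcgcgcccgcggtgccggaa
Psmd12: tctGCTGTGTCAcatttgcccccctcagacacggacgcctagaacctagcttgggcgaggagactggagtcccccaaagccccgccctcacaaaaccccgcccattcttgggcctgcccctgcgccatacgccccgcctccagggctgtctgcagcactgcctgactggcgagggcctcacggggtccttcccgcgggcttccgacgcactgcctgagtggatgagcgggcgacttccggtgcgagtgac
Psmb5: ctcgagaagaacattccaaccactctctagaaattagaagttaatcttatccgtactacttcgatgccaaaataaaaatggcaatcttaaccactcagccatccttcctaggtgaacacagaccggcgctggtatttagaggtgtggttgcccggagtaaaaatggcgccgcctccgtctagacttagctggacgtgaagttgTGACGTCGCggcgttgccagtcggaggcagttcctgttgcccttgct

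The match began 247 bases before the start in Psmd12, on the minus strand, and 47 bases before it in Psmb5. In the full windows, TGACNNNGC was present in 5 of 33 members (15.2%) and in 14% of all 27025 genes with a window. The members were Psmb5, Psmb6, Psmc6, Psmd9 and Psmd12, of which 2 belonged to the 11 core genes with a window and 2 to the 14 regulatory genes with one. In that order, these 5 members had log2 fold changes of -0.27, 0.01, 0.46, 0.51 and -1.38, so the match was found in both directions. CCAAT, bound by NF-Y, was present in 14 of 33 members (42.4%) and 41.1% of all genes. It was in 6 of the 11 core genes (54.5%) and 4 of the 14 regulatory genes (28.6%). The interferon response element core (GAAA, any 2 bases, then GAAA) was present in 3 of 33 (9.09%) and 3.99% of all genes, and in 0 of the 3 immunoproteasome genes. The cAMP response element TGACGTCA was present in 0 of 33 and 2.03% of all genes. Both strands were searched, 0 matches of different motifs overlapped in member windows, and a match is a run of letters, not a measured binding site.

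The chaperones that assemble the base did not share a direction. Psmd9 stood at 384, 247 and 381 in the controls against 459, 477 and 481 in Terf1_flox. Its groups did not overlap, yet its log2 fold change of 0.51 ± 0.39 had an adjusted limma p of 0.597. Psmd5 was at -0.97 ± 0.46 and Psmd10 at -0.15 ± 0.50, both with overlapping groups.

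Psmc3ip, the meiotic factor, stood at 74.8, 0 and 41.8 in the controls against 158, 213 and 174 in Terf1_flox. The groups did not overlap, and the log2 fold change was 3.61 ± 1.54 with an adjusted limma p of 0.339. Control 2 held 0 reads of it. Without that library the value was 1.67, and in DESeq2 with all libraries it was 2.24.

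None of the 3 immunoproteasome genes differed beyond the spread between libraries, and Psmb8 and Psmb9 each had 1 library with a single read. Psmb8 stood at 89.7, 62.9 and 223 in the controls against 132, 1.03 and 159 in Terf1_flox, where 1.03 is 1 read. Psmb9 stood at 47.5, 32.4 and 0.79 in control, the last being 1 read, and 37.0, 26.7 and 113 in Terf1_flox. Psmb10 stood at 429, 165 and 529 in the controls against 819, 445 and 568 in Terf1_flox. In all 3 genes the groups overlapped.

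Their log2 fold changes were -1.64 ± 1.61, 1.79 ± 1.44 and 0.82 ± 0.52, with adjusted limma p of 0.696, 0.623 and 0.521. The library with 1 read set the first 2 of these: Psmb8 was at 0.42 without Terf1_flox 2, and Psmb9 at 0.29 without control 3. Psmb10 was at 0.31 without control 2, and at 1.25 ± 0.52 after correction for GC content and transcript length (unadjusted p = 0.0387 and adjusted p = 0.406 in limma). Values at 1 read lie under 3 reads, the upper limit that a count of 0 allows.

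Each immunoproteasome subunit replaces 1 constitutive subunit, so levels were set side by side per kilobase within a library. Psmb10 was at 30.9, 15.3 and 30.0% of Psmb7 in the controls against 71.3, 23.1 and 31.7% in Terf1_flox. Psmb8 was at 3.01, 1.71 and 7.07% of Psmb5 in the controls against 5.73, 0.032 and 5.84% in Terf1_flox. With the transcript lengths used here, Psmb9 stayed under 1% of Psmb6 in all 6 libraries, with 0.813% the highest. The median over all protein-coding transcripts is shorter, at 529 rather than 1352 bases for Psmb9 and 840 rather than 1628 for Psmb8. Those lengths make both shares higher, and Psmb9 then does not stay under 1%. The constitutive subunits were the more abundant of each pair in every library, and the control and Terf1_flox ranges overlapped in all 3 pairs. Psmb11, which is specific to thymic cortical epithelium, was at 5.53 to 21 normalized counts in the controls against 9.11 to 15.2 in Terf1_flox.

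**Figure D4:**
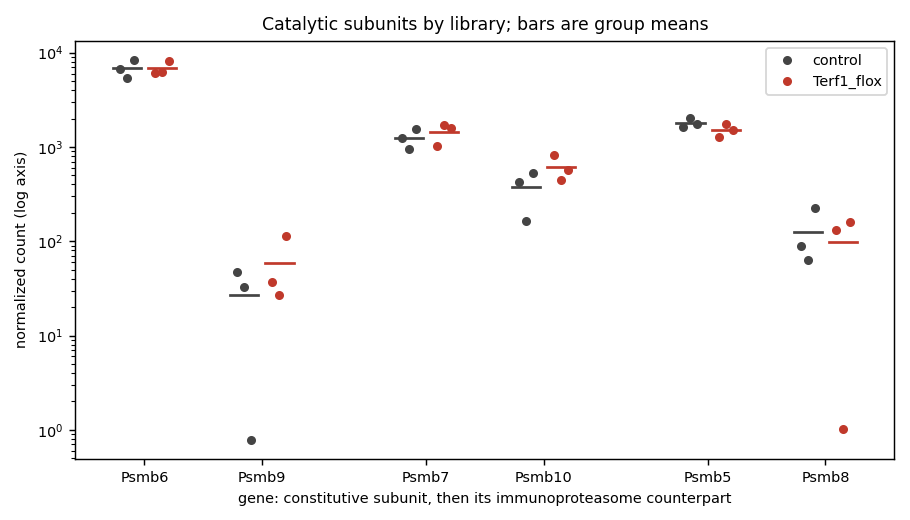
Normalized counts (y axis, log scale) of the catalytic beta subunits and their immunoproteasome counterparts, with 1 point a library, 3 a group, and bars at group means. The groups overlap in all 6 genes, and the single reads of Psmb8 in Terf1_flox 2 and Psmb9 in control 3 are the lowest points.

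Leukocytes express immunoproteasome genes, so their markers were read in the same libraries. Of 15 macrophage and monocyte markers 9 were in the table, and they summed to 437.5 to 880.6 normalized counts in the controls against 230.7 to 548.2 in Terf1_flox. Of 14 lymphocyte markers 3 were in the table, summing to 4.7 to 17.2 in the controls against 24.6 to 135.6 in Terf1_flox. Of these 3, 1 averaged under 10 normalized counts. Of 7 macrophage and monocyte markers tested, 4 were below 0, with a median log2 fold change of -1.25. At an unadjusted limma p below 0.05, 1 was lower and 0 higher, beside 8.43% and 5.7% of all genes tested. The 2 lymphocyte markers tested were above 0, without such a p. DESeq2 called 1 macrophage and monocyte marker lower and 1 lymphocyte marker higher, beside 3.34% and 2.47%. Ptprc, the common leukocyte marker, ranged from 3.26 to 72.1, and Cd79b, a B cell marker, was at 0 in the 3 control libraries and Terf1_flox 2. The part of these cells in the immunoproteasome values was not tested. Of 13 interferon response genes 12 were tested, 8 of them below 0 (52.8% of all genes tested were), and 0 had an unadjusted limma p below 0.05, beside 14.1% of all genes. edgeR gave 3 of them such a p, Isg15 lower and Gbp2 and Rsad2 higher, beside 13.4% of all genes. DESeq2 called Gbp2 higher, beside 2.47% of all genes with an adjusted p. Rsad2 was the gene among them whose groups did not overlap, at 0 to 1.58 in the controls against 2.05 to 33.7 in Terf1_flox. Of all genes tested, 10.3% did not overlap in this direction. The values of 1.58 and 2.05 both lie under 3 reads, so this separation rests on very few reads.

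The related genes were read by role. Of the regulatory subunits with other symbols, Adrm1, a ubiquitin receptor of the base, stood at 384, 573 and 956 in the controls against 241, 277 and 245 in Terf1_flox. Sem1, a small lid subunit, stood at 4471, 5399 and 4158 in the controls against 7857, 8345 and 6755 in Terf1_flox. The groups did not overlap in either, but in opposite directions, at -1.22 ± 0.45 (adjusted p = 0.273 in limma) and 0.71 ± 0.19 (adjusted p = 0.178 in limma and 0.0308 in DESeq2). Adding these 2 to the 17 genes therefore adds 1 in each direction.

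Alternative caps and the core inhibitor Psmf1 made 5 tested genes. Of these, 0 had an unadjusted limma p below 0.05 in either direction, beside 14.1% of all genes tested. edgeR gave 1 of them such a p, beside 13.4% of all genes. The groups did not overlap in 2 of them, 1 lower and 1 higher, beside 21.1% of all genes tested. Psme1, a subunit of the interferon-induced cap, was at -0.62 ± 0.28 and its partner Psme2 at 0.21 ± 0.25. The 5 chaperones that assemble the core also had 0 at an unadjusted limma p below 0.05. The groups did not overlap in 1 of them, which was lower. Among these 5, 4 were above 0, with a median log2 fold change of 0.34. Pomp, the maturation factor, was at 0.08 ± 0.23 and Psmg1, the only one below 0, at -0.69 ± 0.35.

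Of 13 tested factors that bind the proteasome, 1 was lower and 3 higher at an unadjusted p below 0.05, beside 8.43% lower and 5.7% higher among all genes tested. Uchl5, a deubiquitinase that docks on Adrm1, stood at 1217, 1443 and 1503 in the controls against 636, 686 and 507 in Terf1_flox, at -1.19 ± 0.29 (adjusted p = 0.148 in limma and 0.0111 in DESeq2). The 3 higher genes were Ube3c, a ubiquitin ligase, at 1.10 ± 0.42, Zfand5, a proteasome activator, at 0.90 ± 0.32 and Ubqln2, a shuttle for ubiquitinated proteins, at 2.04 ± 0.78.

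The regulators that raise proteasome transcription when proteolysis is impaired gave 2 of 7 tested genes lower and 0 higher at that p, beside the same 8.43% and 5.7% of all genes. The transcription factors Nfe2l1 and Nfe2l2 were at -0.67 ± 0.45 and -0.21 ± 0.36, both overlapping, and the protease Ddi2 was at -0.28 ± 0.51. Vcp, the ATPase that extracts ubiquitinated proteins from membranes and complexes, stood at 1173, 1711 and 1386 in the controls against 532, 685 and 446 in Terf1_flox. All its Terf1_flox libraries lay below the controls, at -1.36 ± 0.32 (adjusted p = 0.139 in limma and 0.00555 in DESeq2). Mafk was at -3.30 ± 1.36 with overlapping groups. Of 9 tested genes of Vcp and its cofactors, 3 were lower at that p (Vcp, Nsfl1c and Ubxn1) and 0 higher, beside 8.43% and 5.7% of all genes tested.

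Genes of ubiquitin and its activation differed in direction, with 3 of 6 tested above 0. At an unadjusted limma p below 0.05, 3 were higher and 1 lower, beside 5.7% and 8.43% of all genes tested. Uba6, an activating enzyme, stood at 138, 143 and 93.9 in the controls against 473, 814 and 758 in Terf1_flox, at 2.42 ± 0.46 (adjusted p = 0.0931 in limma and 5.42e-05 in DESeq2). Uba1, the main activating enzyme, lay the other way at -0.87 ± 0.37. Rps27a, which encodes ubiquitin fused to a ribosomal protein, was at 1.11 ± 0.23 (adjusted p = 0.121 in limma and 0.00196 in DESeq2), while the ubiquitin gene Ubb was at -0.51 ± 0.38 with overlapping groups.

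Of 10 tested genes of MHC class I presentation 3 were lower and 1 higher at an unadjusted p below 0.05, beside 8.43% lower and 5.7% higher among all genes tested. DESeq2 called 2 of them lower and 1 higher, beside 3.34% and 2.47% of all genes with an adjusted p. B2m, the light chain of class I molecules, stood at 1835, 1383 and 1870.1 in the controls against 4249, 3424 and 4891 in Terf1_flox, at 1.30 ± 0.25 (adjusted p = 0.0931 in limma and 0.000117 in DESeq2). H2-D1, a heavy chain, lay the other way, at -1.23 ± 0.35 (adjusted p = 0.196 in limma and 0.0372 in DESeq2). So did the folding factors Calr, at -0.70 ± 0.21 (adjusted p = 0.209 in limma and 0.0648 in DESeq2), and Pdia3, at -1.29 ± 0.21 (adjusted p = 0.0814 in limma and 1.89e-05 in DESeq2). The light chain and this heavy chain thus differed in sign.

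Transcript base composition varied with the fold change among the core genes. Over 14 core genes the log2 fold change and GC content had a Pearson r of -0.77 and a Spearman rho of -0.77, over 17 regulatory genes -0.34 and -0.27, and over 14653 genes tested -0.22 and -0.25. These are descriptions across genes that share the same 6 libraries and are not independent. Psma2, the highest core gene, had 39.4% GC, and Psmc6, the highest regulatory gene, 37.0%, while the medians were 48.9% for core, 49.7% for regulatory and 49.3% for all genes tested.

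After each library was corrected for GC content and transcript length, the core median went from 0.24 to 0.08 and the regulatory median from -0.82 to -0.71. Psma2 went from 0.76 to 0.34 and Psmc6 from 0.46 to 0.10. Psmd2, Psmd13 and Psmc3 were at -2.19, -1.59 and -1.09. Psmd3, a lid subunit, went from 0.05 to 0.71 (unadjusted p = 0.0304 and adjusted p = 0.386 in limma), and Psmd8 from -0.20 to 0.22. The regulatory median was below the core median by 0.79 after the correction and by 1.06 before it, on the log2 scale.

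**Figure D5:**
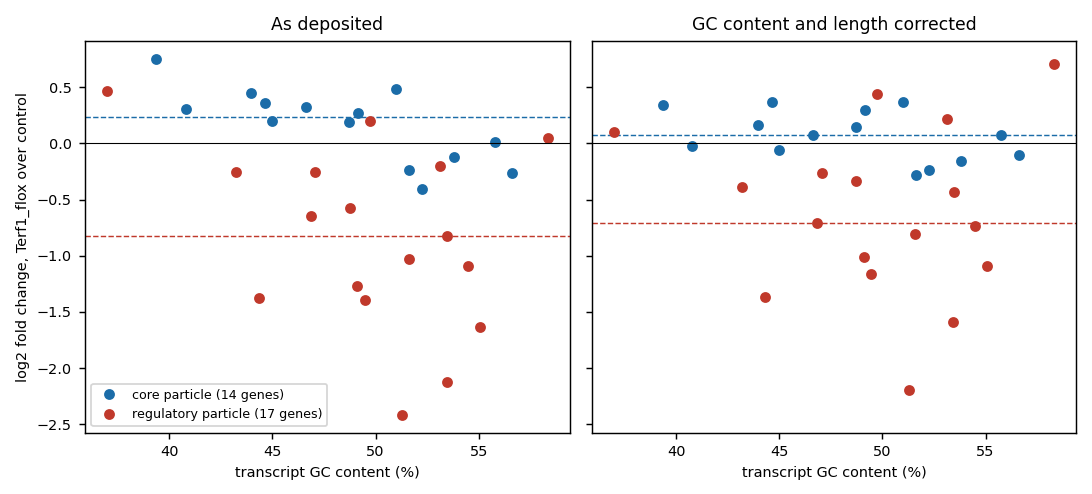
Log2 fold change (y axis, Terf1_flox over control) against transcript GC content (x axis, percent) for 14 core and 17 regulatory genes, as deposited (left) and after correction for GC content and length (right), with dashed lines at the medians. The core median moves from 0.24 to 0.08 and the regulatory median from -0.82 to -0.71.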

How the data were processed

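Polyadenylated RNA of 6 libraries was measured, and per the labels' protocols a low-input kit was used. The deposited table holds a signal per gene, counts scaled by library by the authors. DESeq2 and build GRCm39 are named in the submitters' processing notes. The sources used here do not give the aligner, counter, annotation or gene filter. All values (100.0% in each library) were whole multiples of 1 step within 0.01 of a read, so reads were recovered. Size factors recomputed from them reproduced that scaling within a relative error of 3.8e-15. Values are not divided by gene length unless stated.

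Terf1_flox was compared with control in limma (3.58.1, R 4.3.3, with a mean-variance trend) on log2(normalized count + 1). The 14822 genes averaging 10 or more normalized counts were tested, two-sided, with Benjamini-Hochberg adjustment over all of them and a threshold of 0.05. The added 1 pulls fold changes of low genes toward 0, while single libraries at 0 or 1 read can enlarge them, as the values of Psmc3ip and Psmb8 with and without such a library show. The alternatives tried were other pseudocounts (0.5, 5), other filters (none, or an average of 50 or more), 3 other scalings, a replicate block, leaving out each library, a correction for GC content and length, and edgeR 4.0.16 and DESeq2 1.42.0 on the recovered reads. edgeR called 0 genes and DESeq2 772. The fits were also run on simulated data, whose outcome is not reported here and lends no weight to the calls above. Depth limits low genes, and statements on it cover counting error only.

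GC content and length came from GENCODE mouse release 21 (GRCm38) for 15877 genes (98.6%) by symbol. They were first taken as medians over protein-coding transcripts. After the corrected values had been seen, this was changed to the annotation's principal transcripts where tagged (59.9% of these genes), because the medians of some members (659 bases for Psmd2, 716 for Psmd11) were far under their coding transcripts (2961 and 2237). Both versions are given in the closing section for the core and regulatory results and for members that changed sign. Coordinates are given only for the promoter windows. Reads of Psma5, Psmb5, Psmb6 and Psmb7, which have annotated pseudogenes, may be shared with these in counting.

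The members, the classes and the related lists were chosen with earlier results of these data known. Named genes are Terf1, the immunoproteasome genes with their constitutive counterparts, every member whose groups do not overlap, the 2 members of each class with the smallest p in each direction, its highest and lowest members, and up to 4 genes of each related list by p. Other members and related genes, the 4 motifs, the 4 printed promoters and the counts at an unadjusted p were chosen after the values were seen. Some genes of the related lists are not reported here. Figures were drawn with matplotlib 3.10.9.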

Additional observations from a re-analysis of the deposited data

How the results depend on the processing

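Over 18 alternatives, 26 of 39 members kept the sign of their log2 fold change. The number of genes called was 0 as reported and under the other settings, except 132 with the filter at 50, 45 with equal totals, 8 with quantile normalization and 772 with DESeq2. Members called were 2 with the filter at 50, 7 with DESeq2 and 0 elsewhere. The regulatory minus core median, -1.06 as reported, was -0.84 with edgeR, -0.85 with DESeq2, -0.79 after the GC and length correction and -0.80 after the first version of that correction, which used all protein-coding transcripts and gave core and regulatory medians of 0.15 and -0.66. With those transcript lengths, the summed regulatory over core ratio was 0.490, 0.492 and 0.555 in the controls against 0.240, 0.311 and 0.264 in Terf1_flox, so neither definition changed a direction of these 2 results. The cause of these shifts was not tested. Terf1 passed the threshold with the filter at 50 (-3.99), equal totals (-4.17) and DESeq2 (-3.89).

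Leaving out 1 library at a time gave 0 genes and 0 members called, -4.42 to -3.77 for Terf1, -1.21 to -0.88 for regulatory minus core, 0.08 (without control 2) to 0.43 (without Terf1_flox 1) for the core median, also 0.13 and 0.10 without Terf1_flox 2 and 3, -1.13 to -0.63 for the regulatory median and 5 to 8 regulatory genes lower at an unadjusted p below 0.05. Core genes higher at that p numbered 1 as reported, 3 without Terf1_flox 1, and 2 or 0 in other fits.

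The sign changed after the GC and length correction for Psma3 (-0.023, first version -0.24), Psma4 (-0.055, first version -0.068) and Psmd8 (0.22, first version 0.21). It changed with equal totals for Psmb11 (-0.029), Psmb6 (-0.16) and Psmd3 (-0.12), with quantile normalization for Psmb6 (-0.046) and with edgeR for Psmb11 (-0.0019). With 1 library left out, signs changed within the ranges -0.25 to 0.60 for Psma5, -0.015 to 0.55 for Psma6, -0.30 to 0.58 for Psmb11, -0.15 to 0.18 for Psmb6, -2.74 to 0.42 for Psmb8, -0.97 to 0.018 for Psmc2, -0.53 to 0.36 for Psmd10, -0.64 to 0.29 for Psmd14, -0.037 to 0.12 for Psmd3, -0.66 to 0.020 for Psmd6 and -0.55 to 0.17 for Psmd8.

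Scaling moved the median of all genes by -0.17 (equal totals), 0.11 (equal upper quartiles) and 0.13 (quantile), and the share higher among genes at an unadjusted p below 0.05 from 40.3% to 25.4%, 50.4% and 47.3%. The core medians were then 0.06, 0.36 and 0.24, and the regulatory medians -1.0, -0.70 and -0.83. Same-numbered libraries did not deviate together (correlations of -0.05, 0.00 and -0.01). This shows no shared deviation, but it cannot tell whether the numbers pair libraries. With the replicate block 0 genes were called, 1884 had an unadjusted p below 0.05 (2095 without the block), 8 regulatory genes were lower at that p and no call changed.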

Other observations

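Some regulatory genes with little difference between group means varied more among the Terf1_flox libraries than among the controls, and others did not. This was noticed after the values were seen and is given without a test. The coefficient of variation was 4.72% in the controls and 47.9% in Terf1_flox for Psmd8, 4.72% and 53.1% for Psmd6, and 15% and 55.0% for Psmd14. It was nearly equal for Psmd3 (9.34% and 11.3%) and Psmd7 (12.7% and 14.8%), whose group means were also close. Psmd8 and Psmd14 were lowest in Terf1_flox 1 and highest in Terf1_flox 2, while Psmd6 was lowest in Terf1_flox 3. The median over the 17 regulatory genes was 24.8% in the controls and 43.6% in Terf1_flox, wider in 12 of them. The 5 that were wider in the controls were Psmc5 (32.0% and 22.1%), Psmc6 (11.6% and 6.10%), Psmd4 (24.8% and 7.42%), Psmd11 (36.6% and 31.3%) and Psmd13 (43.5% and 40.8%). Over the 14 core genes the median was 16.6% and 20.5%, wider in 8, and over the 3737 genes averaging 500 or more it was 24.9% and 25.8%, wider in 52.5%.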
